A study of Mus musculus with 16 samples.

Results

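Gene deserts are long stretches of chromosome with no gene start. Here a CpG was placed in a desert when it lay more than 100 kb from every transcript start of a protein-coding gene in the GENCODE M21 annotation of the mouse genome (mm10, the GRCm38 build). The rule used positions alone and no methylation value. It selected 78036 of the 1203687 CpGs measured in all 16 libraries, or 6.48%, and these fell into 1583 separate deserts of 1910 such stretches on the 16 chromosomes analysed. The median desert CpG was 177 kb from the nearest start and the farthest was 2544 kb away. The CpGs next to the limit lay at 100001 bp inside and 99999 bp outside. Desert CpGs were set against 791908 CpGs within 10 kb of a start and, since many of those sit in promoters, also against the 318248 of them that lay 1 to 10 kb from the nearest start.

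The cells were mouse embryonic fibroblasts (MEFs), connective tissue cells grown from C57BL/6J embryos at E13.5 and immortalised by serial passaging. The lines MEF-1 and MEF-2 came from 2 sibling embryos of different sex, and no treatment is given in the labels. Single cells were sorted from each parental line and expanded into 7 clonal lines per family, so that each library is either 1 parental line, which is a mixed population, or 1 line grown from 1 cell. DNA methylation was read by target capture bisulfite sequencing, in which probes pull down chosen regions, bisulfite turns unmethylated cytosines into thymines on sequencing, and the level of a CpG is the percentage of its reads that were methylated. The desert CpGs are therefore those that the capture probes reached, not a random draw from the deserts. The study asked how faithfully a methylation state passes from a single cell to its descendants. Each family goes back to 1 embryo and 1 parental line, so tests across lines measure the spread between these lines and not between animals. Embryo, sex and the immortalisation and culture of each parental line cannot be told apart in any difference between the families.

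Cytosines in CpG pairs are methylated on both strands, and after DNA replication the maintenance methyltransferase DNMT1 restores the mark on the new strand. CpG islands at gene starts are usually kept free of methylation, while bodies of transcribed genes are usually methylated. Gene-poor, late-replicating DNA often loses methylation in cultured and dividing cells and forms partially methylated domains, where CpGs that stand alone between A or T bases are known to lose the most.

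The median desert CpG had 30 to 44 reads per library, against 25 to 38 within 10 kb of a start, and every CpG had at least 10. Over the desert CpGs of 1 library 3187388 to 4670753 reads were counted, so counting error on a desert average is small: in the library with fewest reads, MEF-1 clonal line 7, the pooled share of methylated reads had a 95% Wilson interval of 52.2 to 52.3%, which covers counting error only. In total 2798 desert CpGs (3.59%) had a mean coverage over 100 reads, against 1.46% within 10 kb, which can mark sequence present in many copies. MEF-2 clonal line 3 stood apart from the other MEF-2 lines in desert level and partial share. MEF-1 clonal lines 1, 4 and 5 were closer to each other in deserts (mean absolute difference 8.49 to 8.89 points per pair) than any other MEF-1 pair (9.51 to 11.6 points). Among those other pairs, lines 2, 3 and 7 were the closest (9.51 to 10.1 points), and the rest differed by 10.6 points or more. In MEF-2, pairs among lines 2, 3, 4 and 7 differed by 10.8 to 12.1 points, and all other pairs by 12.8 points or more. Some mean differences, call shares and overlap counts between the families are also given without MEF-2 line 3 or without MEF-1 lines 1, 4 and 5. Other family values, and single deserts, genes and blocks, are given over all 14. No repeat left out the other close groups. The tests over 7 or 14 lines, and the estimates of spread between lines, treat each line as separate. Whether close lines share recent ancestry was not tested. As a check of the cell type label, promoter levels within 1000 bp of the start of marker genes had a median of 13.6% over the 6 of 10 fibroblast genes measured (1.49% in Twist2 to 94.1% in Thy1, with Vim at 1.66%), 73.5% over 3 of 3 blood genes (42.5 to 76.7%), 79.4% over 2 of 3 endothelial genes (74.9 to 83.9%), 33.4% over 4 of 4 epithelial genes (15.7 to 93.9%) and 57.5% over 2 of 3 pluripotency genes (47.8 to 67.2%). Thy1 and the low epithelial promoters, such as Epcam at 15.7%, went against the label, and a promoter level does not give expression.

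Runs of desert CpGs spaced at most 100 bp apart, with at least 5 CpGs, formed 4590 blocks. The level of a block in a line is the mean over its CpGs. The blocks below stand for the kinds of state found in deserts and were picked by fixed rules on their levels: the leading pair of blocks of each class by CpG number, from which 1 is printed, or the leading differences between the families, so their levels are a description with no test. They are printed from the mm10 reference on the plus strand, 5′ to 3′, with every CG in capitals, and are at most 300 bases from the middle of each block. The first, chr11:113201360-113201659, lies between Sox9, a transcription factor of cartilage and gonad development, and Slc39a11, a zinc transporter, overlaps the long non-coding RNA 2610035D17Rik, and was unmethylated in every line. The second, chr9:79342196-79342495, lies between Cd109 and Col12a1, a collagen gene, overlaps the processed pseudogene Gm49264, and was methylated in every line. The third, chr8:55376269-55376568, lies between Gpm6a, a neuronal membrane glycoprotein gene, and Adam29, and had a mean level of 40 to 60% in every line. The next, chr3:18625819-18626047, was methylated in MEF-1 and not in MEF-2, and lies between Cyp7b1, an oxysterol hydroxylase gene, and Armc1. The last pair, chr16:87128274-87128508 between Adamts5 and N6amt1 and chr2:17861765-17862064 between Nebl and H2al2a, was methylated in MEF-2 and partly in MEF-1.
Unmethylated block near Sox9: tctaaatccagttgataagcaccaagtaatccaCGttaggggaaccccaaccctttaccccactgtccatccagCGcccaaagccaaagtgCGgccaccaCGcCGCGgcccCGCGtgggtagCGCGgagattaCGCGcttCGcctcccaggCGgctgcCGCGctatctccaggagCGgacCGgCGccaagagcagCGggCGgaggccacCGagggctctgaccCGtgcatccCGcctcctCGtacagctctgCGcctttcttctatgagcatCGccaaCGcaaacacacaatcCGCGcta
Methylated block near Cd109: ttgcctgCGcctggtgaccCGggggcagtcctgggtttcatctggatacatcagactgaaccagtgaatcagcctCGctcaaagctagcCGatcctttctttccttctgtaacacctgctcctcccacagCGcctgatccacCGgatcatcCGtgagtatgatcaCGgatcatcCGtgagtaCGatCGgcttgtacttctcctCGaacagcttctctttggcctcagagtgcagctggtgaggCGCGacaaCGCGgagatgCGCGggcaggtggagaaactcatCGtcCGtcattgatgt
Block at 40 to 60% near Gpm6a: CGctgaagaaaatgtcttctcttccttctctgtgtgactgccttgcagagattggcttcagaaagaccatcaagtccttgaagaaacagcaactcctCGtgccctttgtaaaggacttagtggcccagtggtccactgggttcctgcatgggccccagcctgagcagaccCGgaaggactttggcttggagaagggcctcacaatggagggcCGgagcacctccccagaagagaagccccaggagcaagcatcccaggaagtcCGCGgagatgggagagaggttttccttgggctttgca
Higher in MEF-1, near Cyp7b1: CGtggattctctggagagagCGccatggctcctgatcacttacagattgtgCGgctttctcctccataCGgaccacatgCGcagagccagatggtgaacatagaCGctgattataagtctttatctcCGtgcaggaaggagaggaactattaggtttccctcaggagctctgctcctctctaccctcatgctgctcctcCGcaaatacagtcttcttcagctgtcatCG
Higher in MEF-2, near Adamts5: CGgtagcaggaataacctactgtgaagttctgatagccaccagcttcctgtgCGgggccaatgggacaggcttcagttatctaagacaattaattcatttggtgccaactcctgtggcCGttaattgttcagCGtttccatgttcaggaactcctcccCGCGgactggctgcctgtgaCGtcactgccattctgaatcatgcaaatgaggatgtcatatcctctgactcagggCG
Higher in MEF-2, near Nebl: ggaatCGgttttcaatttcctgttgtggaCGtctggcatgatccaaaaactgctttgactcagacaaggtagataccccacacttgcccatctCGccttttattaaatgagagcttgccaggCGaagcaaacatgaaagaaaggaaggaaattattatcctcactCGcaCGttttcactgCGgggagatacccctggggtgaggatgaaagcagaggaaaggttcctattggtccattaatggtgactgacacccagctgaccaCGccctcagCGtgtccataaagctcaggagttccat

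The printed stretches differ in CG number as well as in state. The unmethylated stretch near Sox9 holds 30 CGs in 300 bases and the methylated one near Cd109 holds 20 in 300. The stretches near Gpm6a, Cyp7b1, Adamts5 and Nebl hold 6 in 300, 9 in 229, 8 in 235 and 9 in 300. Of the 4590 blocks, 142 (3.09%) had a mean level under 10% in all 14 clonal lines and 283 (6.17%) had 90% or more in all 14. In 21 (0.458%) the mean was 40 to 60% in all 14. The remaining 4144 blocks (90.3%) did none of these. The 21 blocks hold 239 CpGs, whereas only 3 single desert CpGs were at 40 to 60% in all 14 lines. A block level therefore need not be the level of its single CpGs. Among the blocks low in every line 28.9% lay within 1 kb of the start of an annotated gene of another kind than protein-coding, against 14.4% of the remaining blocks. Among the blocks high in every line 32.5% lay inside a protein-coding transcript, against 18.5% of the remaining blocks.

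Desert CpGs were methylated at an intermediate average level. In the MEF-1 clonal lines the mean desert level ran from 57.5 to 59.2% with a median of 58.2%, and the parental line had 58.5%. In the MEF-2 clonal lines it ran from 52.5 to 56.0% with a median of 55.5%, and the parental line had 56.0%. The lines of the families did not overlap, and the parental lines sat close to their clones. Within 10 kb of a start the levels were 35.5% ± 0.286 for MEF-1 and 34.4% ± 0.314 for MEF-2 (SD over 7 lines). Desert CpGs were thus higher by 21.7 points ± 1.24 (SD, n = 14), in 14 of 14 lines (exact two-sided sign-flip test over lines, p = 0.000122, the smallest this test can give with 14 lines, and the same after Benjamini-Hochberg adjustment over the 10 contrasts tested this way).

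The direction of that gap rested on the first 1 kb. Against CpGs 1 to 10 kb from a start, the desert level was 2.04 points lower ± 0.887 (gap -2.04, 14 lines, exact sign-flip p = 0.000122), so the direction turned when the CpGs nearest the starts were left out. By distance, the clonal mean level was 18.9% in the first 1 kb, 58.7% at 1 to 10 kb, 60.3% at 10 to 50 kb and 58.0% at 50 to 100 kb. Inside deserts it then fell with distance, from 57.8% at 100 to 200 kb to 56.2% at 200 to 500 kb, 50.5% at 500 to 1000 kb and 46.8% beyond 1000 kb. The last bins hold 4766 and 1260 CpGs. CpG density and GC content fell over the same bins, from 3.93 other CpGs within 100 bp and 48.3% GC at 100 to 200 kb to 2.74 and 44.2% at 500 to 1000 kb (3.11 and 44.7% beyond), and their part in the trend was not tested.

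**Figure D1:**
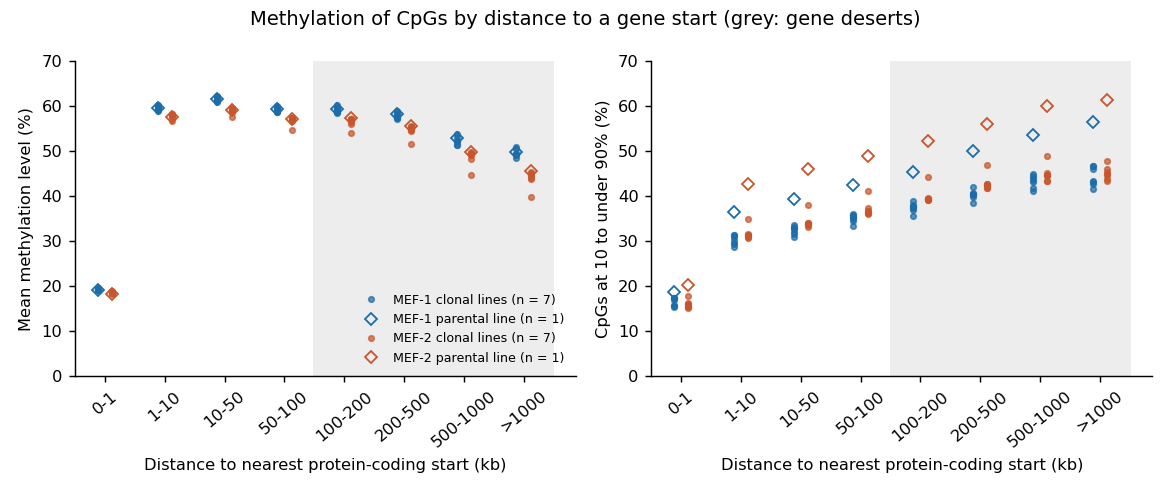
Mean methylation level (left) and share of CpGs at 10 to under 90% (right) by distance to the nearest protein-coding start in kb, with 1 point per library: filled circles are the 7 clonal lines of each family and open diamonds the parental lines. Inside the grey desert range the level falls from 57.8% at 100 to 200 kb to 46.8% beyond 1000 kb, while the partial share rises from 38.8 to 44.7% over the clonal lines.

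Partial methylation was more frequent in deserts than in either set of start-near CpGs. A CpG was called partial in a library when its level was at least 10% and under 90%. Among the MEF-1 clonal lines 37.0 to 40.5% of desert CpGs were partial, with a median of 39.1%, and 47.6% were partial in the parental line. Among the MEF-2 clonal lines the share ran from 40.4 to 45.5% with a median of 40.8%, and was 54.2% in the parental line. Both parental shares lay above all 7 of their own clones. Within 10 kb of a start 22.0% ± 0.912 (MEF-1) and 22.3% ± 1.07 (MEF-2) of CpGs were partial (SD, n = 7 each). The desert share was higher by 17.99 points ± 1.36 in 14 of 14 lines, and by 9.20 points ± 0.733 against CpGs 1 to 10 kb from a start, also in 14 of 14 (exact sign-flip p = 0.000122 for each). The share rose over every distance bin, from 16.3% in the first 1 kb to 31.0, 33.4 and 36.1% up to 100 kb, and within deserts from 38.8 to 41.6, 44.1 and 44.7%.

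The partial CpGs were spread over the whole middle range. In the MEF-1 clones 12.6% ± 0.661 of desert CpGs were low intermediate (10 to under 40%), 13.2% ± 0.682 were intermediate (40 to under 60%) and 13.1% ± 0.964 were high intermediate (60 to under 90%), beside 22.1% ± 1.01 under 10% and 38.97% ± 0.640 at 90% or more. The MEF-2 clones had 13.8% ± 1.56, 12.4% ± 0.627 and 15.1% ± 0.836, with 24.3% ± 0.450 low and 34.3% ± 1.85 high (SD, n = 7 each). The parental lines had more CpGs just off the extremes, with 15.9 and 19.4% low intermediate and 19.1 and 22.6% high intermediate in MEF-1 and MEF-2, and about as many in the middle, at 12.6 and 12.2%.

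States shared by all 14 clones were counted next. All 14 lines were under 10% at 4932 desert CpGs (6.32%), against 29.7% of CpGs within 10 kb of a start and 8.92% of those 1 to 10 kb away. All 14 were at 90% or more at 9835 desert CpGs (12.6%), more than the 10.3% within 10 kb of a start and less than the 19.04% at 1 to 10 kb. No line was partial at 18.9% of desert CpGs, against 28.0% at 1 to 10 kb and 40.04% within 10 kb. At the other end, all 14 lines were partial at 3248 desert CpGs (4.16%), against 2.44% at 1 to 10 kb and 1.71% within 10 kb. A level of 40 to 60% in all 14 lines, the level that 1 methylated and 1 unmethylated copy would give, was found at 3 desert CpGs (0.00384%) and at 76 of all CpGs (0.00631%). Their median coverage was 123.5 and 71 reads, against 36 over all desert CpGs. Read sampling can move a level out of this window in some line, so the count can miss such CpGs at usual coverage.

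**Figure D2:**
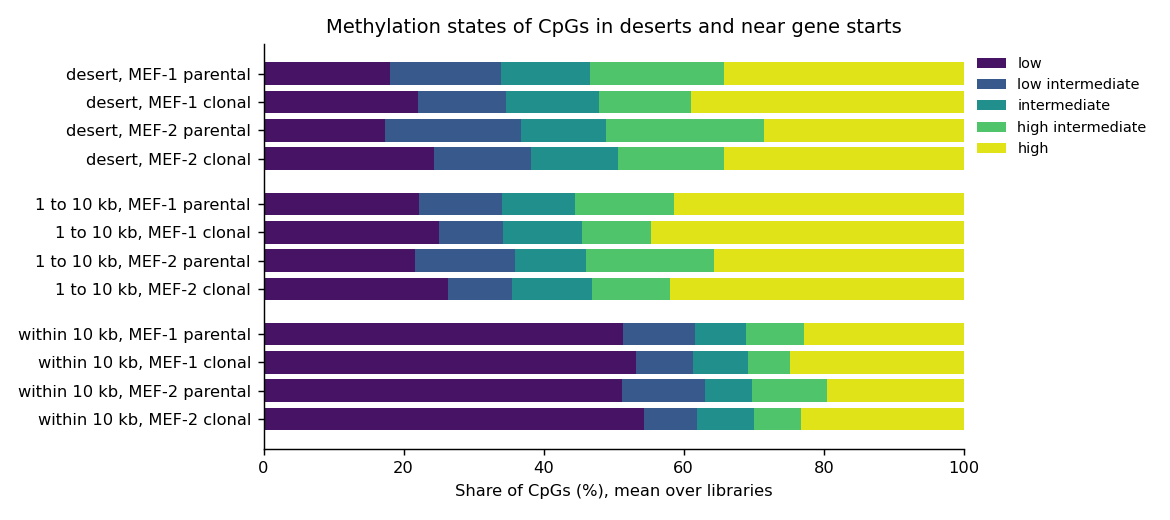
Share of CpGs (%) in 5 methylation states, as means over the libraries of each group, for desert CpGs, CpGs 1 to 10 kb from a start and all CpGs within 10 kb of a start. The 3 middle states add up to 38.9% of desert CpGs in MEF-1 clones and 41.4% in MEF-2 clones, and the parental bars have the widest low intermediate and high intermediate parts.

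CpG density was related to the level differently in deserts and near genes. For each CpG the other reference CpGs up to 100 bp away were counted, 3.67 on average for desert CpGs and 8.46 within 10 kb of a start. Near genes, 1 to 10 kb from a start, the level was flat at 64.8 to 66.1% for CpGs with 0 to 2 neighbours and then fell to 35.6% for those with 10 or more. In deserts it went up first, from 49.6% with no neighbour to 54.3, 57.5, 58.0 and 59.2% with 1 to 4, stood at 60.9% with 5 to 6 and 59.6% with 7 to 9, and fell to 50.9% with 10 or more. A CpG with no neighbour was therefore 15.2 points lower in deserts (gap -15.2 ± 1.19, 0 of 14 lines positive), whereas one with 10 or more neighbours was 15.2 points higher (gap 15.2 ± 0.386, 14 of 14 lines). The gap was negative in all 14 lines for each count of neighbours up to 4, positive in 13 of 14 at 5 to 6 (1.82 ± 0.684) and positive in all 14 above that (exact sign-flip tests, adjusted p = 0.00013 to 0.000244 over 16 tests, which were chosen after the levels had been seen). Averages over all densities mix these opposite gaps. Weighting the CpGs within 10 kb to the densities of the desert CpGs left a level gap of 5.63 points ± 0.897, and the same weighting against 1 to 10 kb gave -4.78 ± 0.772. The weighted gap against all CpGs within 10 kb was 10.7 points with density counted within 35 bp. It was 0.577 points (exact sign-flip p = 0.0645, n = 14 lines) with both sets measured from the starts of all genes, which left 11934 desert CpGs.

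The partial share did not cross. It was higher in deserts in all 8 density classes, by 7.54 to 12.5 points, in 14 of 14 lines each. With no neighbour 41.6% of desert CpGs were partial against 34.0% at 1 to 10 kb, and with 10 or more neighbours 38.3% against 25.7%. The 4650 desert CpGs with 10 or more neighbours include CpGs of a chromosome 17 desert with a ribosomal DNA copy, described below. That desert has 572 CpGs with 21.1 neighbours on average and a partial share of 92.8%. Its part in the 12.5 points was not tested. Weighted to equal density, the gap against all CpGs within 10 kb was 11.1 points ± 0.921 (14 of 14 lines, exact sign-flip p = 0.000122). With partial set at 20 to 80% methylation it was 7.24 points (exact sign-flip p = 0.000122).

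**Figure D3:**
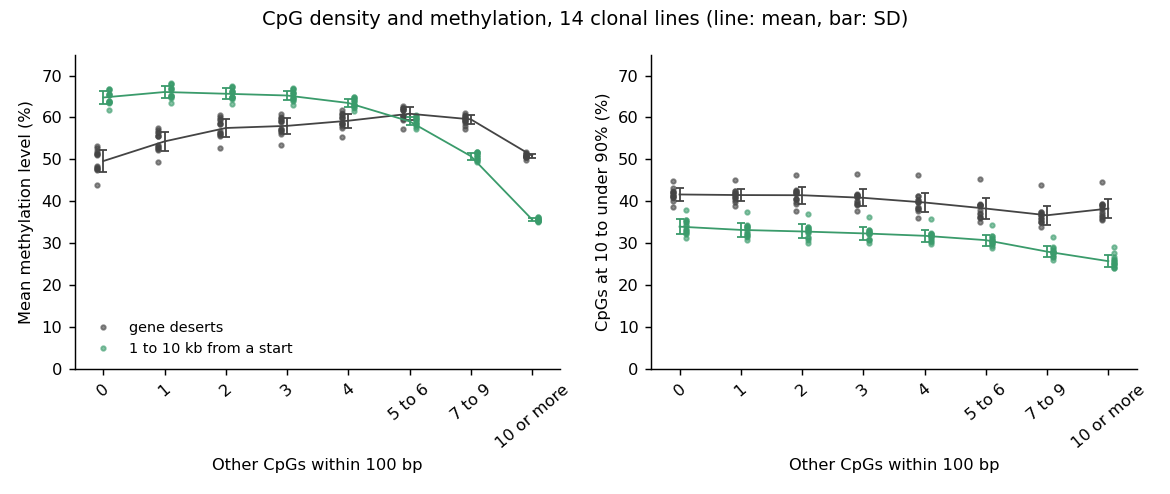
Mean methylation level (left) and share of CpGs at 10 to under 90% (right) by the number of other CpGs within 100 bp, for desert CpGs (grey) and CpGs 1 to 10 kb from a start (green). Points are the 14 clonal lines, lines join their means and bars are SDs. The levels cross between 4 and 5 to 6 neighbours, from 15.2 points lower to 15.2 points higher in deserts. The partial share lies 7.54 to 12.5 points higher throughout. The class with 10 or more includes CpGs of the desert with a ribosomal DNA copy.

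Sequence context was compared next, because isolated CpGs between A or T bases are the class known to lose methylation in partially methylated domains. The classes are shown by the desert CpG with most reads in each, among those with a mean coverage up to 100, with 35 bases on either side and the measured CG in capitals (mm10, plus strand, 5′ to 3′). The first, chr6:143530609-143530680, has A on both sides and no other CpG in the window, and lies between Etnk1 and Sox5. The second, chr13:66642461-66642532, has C on both sides and 1 other CpG, and lies between 2410141K09Rik and Uqcrb, a subunit gene of respiratory complex III.
Isolated, A or T flanks: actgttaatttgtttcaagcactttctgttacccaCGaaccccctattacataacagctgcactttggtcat
Grouped, C or G flanks: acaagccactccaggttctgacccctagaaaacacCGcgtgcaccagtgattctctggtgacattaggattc

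The isolated example had levels of 3.96 to 37.2% in the MEF-1 clones and 47.8 to 72.1% in the MEF-2 clones, and the grouped one 96.9 to 100% and 64.8 to 98.9%. Over all desert CpGs, the 8480 isolated ones with A or T on both sides had a mean level of 44.4% ± 0.802 in the MEF-1 clones and 41.3% ± 1.503 in MEF-2, and the 13892 grouped ones (at least 1 other CpG within 35 bp) with C or G on both sides had 63.4% ± 0.334 and 61.6% ± 0.858 (SD, n = 7 each). The difference was -19.6 points ± 0.924 over the clones, negative in 14 of 14 lines (exact sign-flip p = 0.000122), and -17.3 and -18.5 in the parental lines. The same contrast 1 to 10 kb from a start was 1.72 points ± 0.563, so the desert gap was lower by 21.3 points ± 0.515 in 14 of 14 lines (difference -21.3, exact sign-flip p = 0.000122). Near starts the grouped class includes island CpGs, so flanks were also compared among isolated CpGs alone, a comparison added after the values were seen. There the A or T class was below the C or G class by 16.7 points ± 0.805 in deserts (-16.7) and 10.4 ± 0.406 at 1 to 10 kb (-10.4), a difference of -6.29 ± 0.512 in 14 of 14 lines (exact sign-flip p = 0.000122). Isolated A or T CpGs themselves stood at 42.9% in deserts and 56.7% at 1 to 10 kb. The desert gap was -24.5 among CpGs over 200 kb from a start and -14.9 among those over 50 kb, and by flanks alone or by isolation alone it was -11.6 and -8.79 over all desert CpGs, the latter comparing no other CpG within 35 bp with at least 3.

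**Figure D4:**
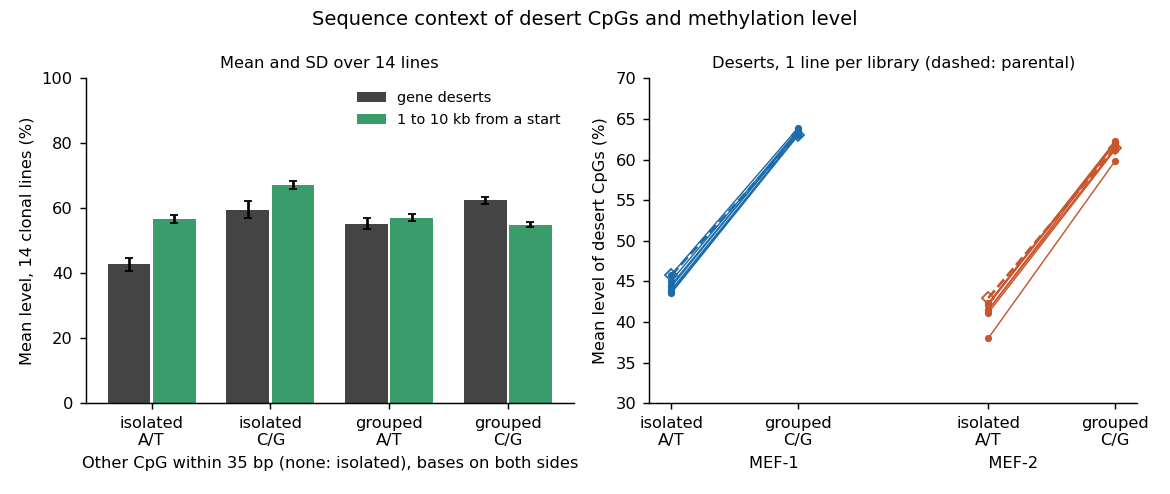
Left, mean methylation level over 14 clonal lines (bars, with SD) by sequence context, isolated meaning no other CpG within 35 bp and A/T or C/G naming the bases on both sides, for desert CpGs (grey) and CpGs 1 to 10 kb from a start (green). Right, the desert level of isolated A/T and grouped C/G CpGs in each library, joined by a line (dashed, parental; axis from 30 to 70%); the gap is -18.9 points on average in MEF-1 clones and -20.3 in MEF-2 clones.

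Genes reach into deserts when they are long enough. In all, 14401 desert CpGs (18.5%) lay inside a transcript of a protein-coding gene, of which 920 were exonic, a further 21.7% lay in a non-coding transcript, and 59.8% lay in none. CpGs inside protein-coding transcripts had a mean level of 65.2% ± 0.572 for MEF-1 and 62.4% ± 1.18 for MEF-2 lines, against 56.6% ± 0.646 and 53.4% ± 1.23 outside (SD over 7 lines). Inside exceeded outside by 8.78 points ± 0.296 in 14 of 14 lines (exact sign-flip p = 0.000122), and on 16 of 16 chromosomes, from 0.334 to 23.7 points. CpGs 1 to 10 kb from a start had 62.6% inside and 49.6% outside, so the higher level inside transcripts was not particular to deserts. The desert gap was 5.65 points with deserts over 200 kb from a start, 11.5 over 50 kb, and 5.02 on chromosomes 3, 4, 6 and 9 alone. Exonic desert CpGs had 73.7%, those in non-coding transcripts 57.8% and those in no transcript 54.0%. The partial share ran the other way, at 29.4, 38.99 and 41.4%.

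Long genes differed widely in the level of the desert CpGs they contain. Of 315 genes with at least 10 such CpGs the median level was 61.5%, with a range of 10.7 to 97.2%, 143 were below 60%, 79 were at 80% or more, and the median partial share was 38.4%. Among 26 long genes that many cell types express, 15 had enough CpGs, and their median level was 83.8% (65.4 to 92.4%). None was below 60% and 10 were at 80% or more. Fto, an RNA demethylase gene, stood at 92.4%, Vps13b, a Golgi protein gene, at 90.6%, Lpp, a focal adhesion gene, at 90.4%, and Nfia and Nfib, transcription factors, at 83.8 and 77.6%. Their median partial share was 20.8%, and Nfib had 6.64%. Of 29 long neural adhesion and synapse genes, 21 had enough CpGs, and their median level was 49.3% (18.6 to 93.6%) with a median partial share of 39.4%, close to that of all 315 genes. In this list 15 genes were below 60% and 2 at 80% or more. Ptprd, a receptor phosphatase of the synapse, had 18.6%, Ctnna2, a neuronal catenin, 29.0%, Grm8, a glutamate receptor, 30.2%, and Csmd1, Opcml and Lsamp 32.2, 32.3 and 32.8%. The genes at 60% or more were Robo2, an axon guidance receptor (93.6%), Pcdh9, a protocadherin (85.2%), Robo1 (77.2%), Cdh13, a cadherin (71.1%), Cntnap2, a neurexin family gene (67.1%), and Cadm2, an adhesion gene (61.2%), of which Cdh13 held 96 CpGs and the others 10 to 22. The lists hold genes by their known expression and not by any measurement here, and the levels are a description.

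The 10 genes with most desert CpGs ran from 37.6 to 88.9%. Gm20388, a long locus with 362 CpGs, had 77.2% and contains Gse1 (171 CpGs, 83.8%), so those CpGs are counted in both. Camta1, a calmodulin-binding transcription factor, had 55.5% over 361 CpGs, Sox5, a transcription factor of cartilage and neurons, 84.4% over 303, and Zfhx3, a homeodomain factor, 76.7% over 281. Trappc9, a vesicle trafficking gene, had 68.3% over 211 CpGs with a partial share of 59.2%, the highest of these 10 genes. Arid1b, a chromatin remodelling subunit, had 85.7% and Fbxl17, an F-box gene, 88.9%, with partial shares of 17.9 and 19.3%. Asic2, a neuronal acid-sensing channel, had the lowest level of the 10, 37.6%, and Camkmt, a calmodulin methyltransferase, had 63.4%.

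Whole deserts ranged from almost unmethylated to almost fully methylated. Of the 749 deserts with at least 30 CpGs, which hold 68056 of the members, the median level was 55.7% with the middle of the distribution between 44.0 and 70.2%. In 118 the mean clonal level was below 40%, in 306 it was 40 to under 60%, in 254 it was 60 to under 80% and in 71 it was 80% or more. The 59 bounded by a developmental regulator from a list of such genes had a median of 63.0%, and the other 690 had 55.3%; the same groups had median partial shares of 37.4 and 40.9%. The 134 deserts with over 50% of their CpGs inside a gene had a median of 64.5%, and the 525 with none had 54.4%.

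Deserts at the ends of this range were picked for their level and are a description. The lowest desert, chr15:32701676-32820722 between the guidance gene Sema5a and the syndecan gene Sdc2, had 6.50 to 8.10% in the MEF-1 clones (median 6.92%) and 10.2 to 12.8% in the MEF-2 clones (median 11.9%) over 44 CpGs. It is followed by the desert between Isl1, a homeodomain factor of motor neurons and heart, and Parp8 (11.8% over 33 CpGs), and by one inside Rims1, a synaptic active zone gene (14.0% over 43). At the top, the desert between Banf2 and Snx5 on chromosome 2 had 95.3% over 34 CpGs, with 95.1 to 96.5% in MEF-1 and 90.7 to 97.3% in MEF-2. The desert between Foxp2, a forkhead factor, and Mdfic had 94.2%. Mean coverage in the Foxp2 desert was 132 reads, against 28.5 to 37.6 in the other 4 deserts named here.

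The 10 deserts with most CpGs included several well known loci. The largest, chr8:55054844-55806947 between Gpm6a and Adam29, held 784 CpGs at 40.5% with a partial share of 61.2% and a mean coverage of 90.2 reads. The desert between Ube3a, an imprinted ubiquitin ligase gene, and Gm38393 on chromosome 7 held 707 CpGs at 21.3%, of which 40.5% were repeat-masked. The Myc desert on chromosome 15, downstream of the growth regulator Myc and ending at Gsdmc, was at 85.1% over 468 CpGs. The Zfhx3 desert was at 74.1%, the one between Klf14, an imprinted transcription factor gene, and Mkln1 at 66.3%, and the one between Sox9 and Slc39a11 at 63.0%. The desert between Olfr1507, an odorant receptor gene, and Dad1 on chromosome 14 was at 41.4% over 416 CpGs. That interval holds the T cell receptor alpha and delta segments, which are annotated as their own class and not as protein-coding genes, so it counts as a desert under the rule. The desert between Nphp4, a ciliary gene, and Ajap1 stood at 50.4% and the one between 2410141K09Rik and Uqcrb also at 50.4%.

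The desert between Esp15 and Esp38 on chromosome 17 contains a ribosomal DNA copy. Its 572 CpGs had a mean coverage of 759 reads, a mean level of 20.4% and a partial share of 92.8%. The MEF-1 clones had 15.2 to 18.4% and the MEF-2 clones 23.2 to 25.3%, with no overlap. Without it the remaining 77464 desert CpGs gave a partial share gap of 17.6 points in place of 17.99 and a family difference of 3.16 points in place of 3.08.

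**Figure D5:**
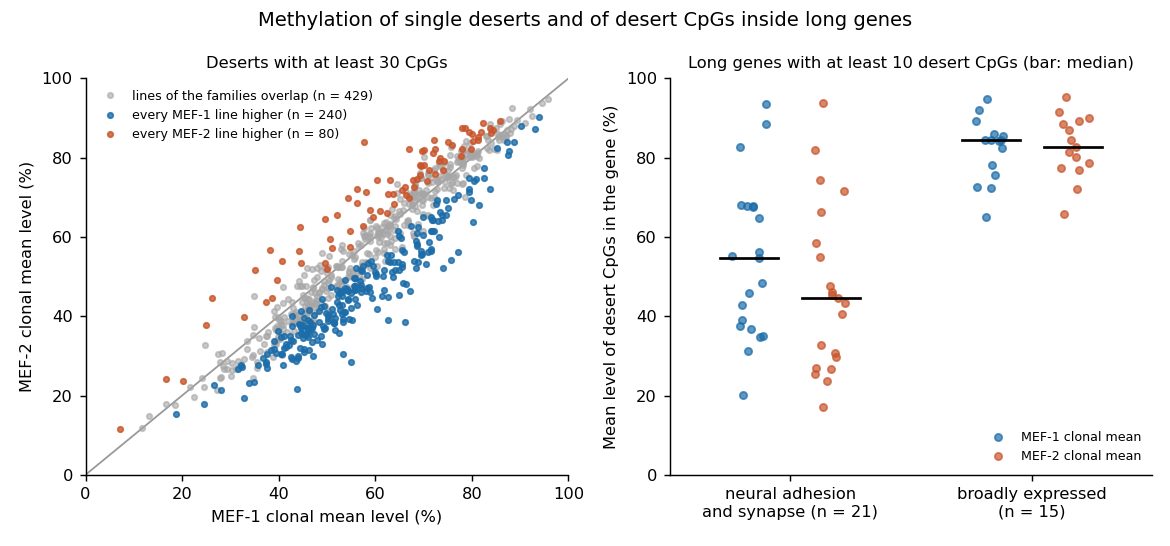
Left, mean clonal level in MEF-1 and MEF-2 of the 749 deserts with at least 30 CpGs, coloured where the 7 lines of 1 family all lie above the 7 of the other (blue, 240 deserts higher in MEF-1; orange, 80 higher in MEF-2), with the line of equality. Right, mean level of the desert CpGs inside 21 long neural adhesion and synapse genes and 15 long broadly expressed genes, 1 point per gene and family with the median as a bar.

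Clonal lines of 1 parent differed more in deserts. For each line the absolute difference from the mean of the other 6 lines of its family was averaged over CpGs. It was 7.83 to 8.93 points in the MEF-1 lines (median 8.56) and 9.65 to 10.8 points in the MEF-2 lines (median 10.2), against 5.40 to 5.98 and 6.29 to 7.02 points within 10 kb of a start. The desert value was larger by 3.15 points ± 0.448 in 14 of 14 lines, and by 1.43 ± 0.143 against CpGs 1 to 10 kb from a start (exact sign-flip p = 0.000122 for each). It rose with distance, from 5.05 points in the first 1 kb and 7.92 at 1 to 10 kb to 9.09 at 100 to 200 kb and 10.5 beyond 1000 kb. With 10 reads drawn per CpG and library, the gap was 3.86 points. These deviations include read sampling, which is larger at few reads and in the middle range. The gap at 10 reads therefore does not measure clone differences alone.

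A CpG in the middle range has more room to vary, so the spread was also scaled to the level. Among CpGs partial in the own parental line, the variance between clones beyond read sampling was divided by p(1-p), where p is the clonal mean level as a fraction. A share of 1 would mean that every clone was fully methylated or fully unmethylated. In MEF-1 the share was 0.119 (jackknife SE 0.01003) in deserts and 0.112 (SE 0.00972) within 10 kb of a start, and in MEF-2 it was 0.163 (SE 0.0103) and 0.163 (SE 0.0127). Since both sets were read in the same clones, the difference was also taken with its own jackknife over the 7 lines. It was 0.00697 (SE 0.00177) in MEF-1, higher in deserts with any of the 7 lines left out, and 0.000723 (SE 0.00313) in MEF-2, where it was under its SE. Clones at opposite extremes, with some line under 10% and another at 90% or more, were seen at 564 desert CpGs (0.723%) among the MEF-1 lines and at 1213 (1.55%) among the MEF-2 lines, against 0.454 and 1.19% of all CpGs and 0.553 and 1.47% of those 1 to 10 kb from a start.

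Fewer desert levels lay in the windows that faithful copying of 1 cell would give, which were set at 0 to 10%, 40 to 60% and 90 to 100%. In MEF-1 clones 72.9 to 77.7% of desert levels lay inside them (median 74.9%) and in MEF-2 clones 66.7 to 73.2% (median 72.3%), while the parental lines had 65.6 and 58.6%. The share was lower than within 10 kb of a start by 13.0 points ± 1.84 (gap -13.0) and lower than at 1 to 10 kb by 7.63 ± 1.15 (gap -7.63), in 14 of 14 lines (exact sign-flip p = 0.000122 for each). With 10 reads drawn per CpG and library the gap was -8.39, and with other windows it ran from -18.1 to -3.86.

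Neighbouring CpGs were also less alike. The closest measured CpG lay within 10 points in 50.2% ± 0.951 (MEF-1) and 51.1% ± 1.26 (MEF-2) of desert CpGs, and in 71.2% ± 1.06 and 71.9% ± 1.18 of those within 10 kb of a start (SD over 7 lines). This is a gap of -20.9 points ± 0.292, and -8.72 ± 0.497 against 1 to 10 kb, negative in 14 of 14 lines (exact sign-flip p = 0.000122 for each). The closest CpG is farther away on average where CpGs are sparse, so pairs were also compared at matched spacing. At 1 to 20 bp, desert pairs differed by 14.9 points on average and pairs at 1 to 10 kb from a start by 13.51. At 51 to 100 bp they differed by 29.9 and 25.3 points, and beyond 200 bp by 31.1 and 30.1.

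From parent to clone, extreme states in deserts were kept more often than middle ones. Of desert CpGs at 90% or more in the MEF-1 parent, 91.1% ± 1.46 were at 90% or more in a clone, and in MEF-2 87.4% ± 2.07. Of those under 10% in the parent 86.6% ± 1.16 and 88.3% ± 0.829 stayed there. Within 10 kb of a start the same shares were 94.1 and 92.0% for high and 93.2 and 94.3% for low CpGs. Of intermediate desert CpGs (40 to under 60% in the parent) 45.8% ± 1.30 stayed intermediate in the MEF-1 clones and 36.9% ± 2.38 in the MEF-2 clones (SD, n = 7 lines). High intermediate CpGs of the parent stayed so in 35.2 and 36.5% of cases and moved to 90% or more in 37.2 and 36.9%. Low intermediate ones moved below 10% in 35.97 and 39.99% of cases and stayed in 39.7 and 37.4%. All 7 clones kept the parental state at 66.4 and 56.7% of high desert CpGs, but at 1.67 and 0.923% of intermediate ones. Read sampling, in the parent as in the clones, moves levels more in the middle range and can take a CpG out of its state. Its part in these shares and those that follow was not tested.

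Over all CpGs partial in the parent, a clone kept the parental state at 38.2% of desert CpGs and 33.9% of those within 10 kb of a start. The gap of 4.29 points ± 0.956 was positive in 14 of 14 lines (exact sign-flip p = 0.000122). The states did not all go this way. Intermediate CpGs stayed intermediate less often in deserts than within 10 kb of a start (45.8 against 48.9% in the MEF-1 clones, 36.9 against 44.7% in the MEF-2 clones), while low intermediate CpGs (39.7 against 30.2% and 37.4 against 27.03%) and high intermediate ones (35.2 against 31.6% and 36.5 against 29.7%) stayed more often. The gap rests on where the partial range ends: counting 20 to under 80% as partial, the gap was -0.308 ± 0.588 (p = 0.0538, exact sign-flip test, n = 14 lines).

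The families differed in mean desert level. The MEF-1 clones exceeded the MEF-2 clones by 3.08 points in mean desert level (exact two-sided permutation test of 7 against 7 lines, p = 0.000583, the smallest it can give), against 1.10 points within 10 kb of a start. The difference between these differences was 1.98 points (same test on the per-line gap, p = 0.000583), and 1.37 points against CpGs 1 to 10 kb away (p = 0.000583, exact permutation test). MEF-2 line 3 had the lowest desert level of all, 52.5%, and without it the family difference was 2.64 points and the difference from start-near CpGs 1.63. Without MEF-1 lines 1, 4 and 5 they were 2.65 and 1.75 points (exact permutation p = 0.00303 each). The desert partial share was 2.48 points lower in MEF-1 (difference -2.48, exact permutation p = 0.00175; -1.79 without MEF-2 line 3, p = 0.00233, and -2.98 without MEF-1 lines 1, 4 and 5, p = 0.00303). Within 10 kb of a start the difference was -0.264 (exact permutation p = 0.652), which mixes opposite directions. In the first 1 kb the MEF-1 share was higher, at 16.6 against 15.98% in MEF-2. It was lower at 1 to 10 kb (30.2 against 31.7%), 10 to 50 kb (32.4 against 34.4%) and 50 to 100 kb (35.05 against 37.2%). These bins were not tested, but a lower MEF-1 share was not particular to deserts. The family difference in level was larger where CpGs were sparse and far from genes. It was 4.57 points for desert CpGs with no other CpG within 100 bp and -0.350 for those with 10 or more. The latter include CpGs of the desert with the ribosomal DNA copy (572 CpGs, family difference -7.35 points), whose part in that value was not tested. At 1 to 10 kb from a start the same classes had 2.58 and -0.106 points, so the fall with density was not particular to deserts. Beyond 1000 kb from a start the family difference was 5.64 points. Every chromosome had the same sign, from 0.0320 to 5.81 points over 16 chromosomes.

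Single CpGs were tested with a quasi-binomial model of the read counts, an F-test with Benjamini-Hochberg adjustment over the whole table. In deserts 20945 of 78036 CpGs (26.8%) passed an adjusted p of 0.05, against 20.2% of all CpGs. Of these, 12497 were higher in MEF-1 (16.01% of desert CpGs, against 11.6% of all CpGs) and 8448 higher in MEF-2 (10.8%, against 8.53%). The share called was 17.3% within 10 kb of a start and 24.8% at 1 to 10 kb. The median size of a called difference in deserts was 36.9 points, against 38.6 points over all called CpGs. It reached 20 points at 18018 of the called desert CpGs (86.03%, against 88.9% of all called CpGs) and 50 points at 4314 (20.6%, against 21.5%). The levels of the 7 and 7 lines did not overlap at 9046 desert CpGs (11.6%), against 9.41% of all CpGs. A difference of at least 20 points with no overlap was found at 8393 desert CpGs (10.8%, against 9.15% of all CpGs), and an adjusted p under 0.01 at 13502 (17.3%, against 13.8%). Without MEF-2 line 3 the share called was 24.8% in deserts and 18.7% over all CpGs, and without MEF-1 lines 1, 4 and 5 it was 17.96% and 14.1%.

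Whole deserts also differed. Of the 749 with at least 30 CpGs, the mean levels of the families did not overlap in 320 (42.7%), with MEF-1 higher in 240 (32.04%) and MEF-2 in 80 (10.7%). Stretches within 10 kb of a start with at least 30 CpGs, of which there were 7770 with a median of 67 CpGs against 66 in the deserts, did not overlap in 31.7%, with MEF-1 higher in 21.7% and MEF-2 in 9.97%, so the excess in deserts was mainly in the MEF-1 direction. These stretches include promoters and had a median level of 31.3%, against 55.7% in the deserts. The part of that in these shares was not tested, and stretches limited to 1 to 10 kb were not compared. Without MEF-2 line 3 the families did not overlap in 44.2% of deserts and 33.1% of stretches, and without MEF-1 lines 1, 4 and 5 in 48.2 and 36.8%. The difference reached 10 points in 135 deserts (18.02%) and in 5.97% of those stretches. MEF-1 was higher by at least 10 points in 113 deserts and MEF-2 in 22. Of the 10 deserts with most CpGs, every MEF-1 line was above every MEF-2 line in 5 and below in 2, and the lines overlapped in the other 3.

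The deserts with the largest family differences were picked for that difference and are described without a test. Between Trim42 and Clstn2, a synaptic calsyntenin gene that contains all 36 of its CpGs, the MEF-1 clones had 62.8 to 68.8% (median 66.4%) and the MEF-2 clones 32.7 to 42.0% (median 38.4%), and the parental lines had 62.8 and 40.8%. Next to Ppp2r3a, a phosphatase subunit gene, the clones had 53.5 to 57.3% and 24.9 to 33.8%. Next to Tshz3, a zinc finger factor of smooth muscle and neurons, they had 58.4 to 64.6% and 35.1 to 42.5%. In the other direction, the desert between Nebl and H2al2a had 53.5 to 61.6% in MEF-1 and 80.5 to 87.1% in MEF-2. The desert next to Tbx18, a T-box factor, had 34.8 to 40.5% and 53.5 to 61.6%, and that between Ccdc34 and Bbox1, a carnitine synthesis gene, 24.3 to 31.0% and 41.5 to 47.4%. In all 6 of these deserts the parental lines differed in the same direction as their clones.

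The blocks printed above show the same at finer scale. Near Cyp7b1, 9 CpGs had 78.7 to 88.6% in the MEF-1 clones (median 83.6%) and 0.841 to 12.6% in the MEF-2 clones (median 3.86%), with 80.3 and 5.41% in the parental lines. Near Nebl, 11 CpGs had 22.2 to 39.96% (median 32.6%) and 79.3 to 91.1% (median 88.6%), and near Adamts5, 8 CpGs had 19.8 to 31.4% and 77.5 to 93.4%. Another block, between Saraf and Dusp4 on chromosome 8, of 7 CpGs, had 69.2 to 91.7% in MEF-1 and 12.7 to 34.9% in MEF-2. The blocks with 1 state in every clone were picked for that, so their narrow range follows from the rule. Near Sox9, 70 CpGs had 1.27 to 3.73% over all 14 clones, and 70 more between Ccdc54 and Cblb, over the non-coding RNA Dubr, had 3.98 to 8.55%. Near Cd109, 44 CpGs had 94.9 to 98.0%, and 39 in a block overlapping an exon of Magi1, a junction scaffold gene, had 95.8 to 98.3%. The blocks at 40 to 60% were picked in a wider window, so their ranges cannot be compared with those above. The one near Gpm6a, of 18 CpGs, had 50.4 to 56.6% in MEF-1 and 41.4 to 49.3% in MEF-2 at a mean coverage of 94.2 reads, and one of 53 CpGs beside Samd9l on chromosome 6 had 53.6 to 59.5% and 40.7 to 48.9% at 72.9 reads.

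Among long genes, the family difference was positive in 17 of the 21 neural genes and in 8 of the 15 broadly expressed ones, against 198 of all 315, and the families did not overlap in 9, 3 and 112 of them (9, 4 and 115 without MEF-2 line 3, and 9, 5 and 129 without MEF-1 lines 1, 4 and 5). Among the neural genes Erbb4, a neuregulin receptor, had 64.3 to 71.5% in the MEF-1 clones and 39.3 to 49.0% in the MEF-2 clones. Among the broadly expressed ones Zbtb20, a zinc finger repressor, went the other way, with 81.4 to 90.8% against 93.3 to 98.7%. Of the 10 genes with most desert CpGs, Camta1 was higher in MEF-1 by 8.71 points and Sox5 higher in MEF-2 by 6.22 points (difference -6.22), each without overlap of the clones.

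Against CpGs within 10 kb of a start, both the desert level (by 10.2 to 27.5 points) and the desert partial share (by 13.8 to 21.4 points) were higher on 16 of 16 chromosomes. The desert partial share ranged from 35.8% on chromosome 10 to 44.3% on chromosome 7 and was above that at 1 to 10 kb on 16 of 16 chromosomes, by 4.65 to 12.9 points. The desert level ranged from 44.0% on chromosome 7 to 64.9% on chromosome 10 and was above that at 1 to 10 kb on 5 of 16 chromosomes, with gaps from -13.1 to 3.20 points. The lowest gap was also on chromosome 7. Of its 3173 desert CpGs, 707 lay in the desert between Ube3a and Gm38393, at 21.3%, whose part in these values was not tested. The context gap was negative on all 16, from -32.9 on chromosome 7 to -6.79 on chromosome 17, where it was -17.7 without the desert that holds the ribosomal DNA copy.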

How the data were processed

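Methylation was measured by target capture bisulfite sequencing in 2 parental and 14 clonal lines. The authors trimmed reads, aligned them to mm10, dropped reads with mapping quality under 10, combined both strands of each CpG, and deposited counts of methylated and unmethylated reads per CpG. The submitters' processing notes name Trim Galore 0.6.0, Bismark and R 3.6.1. Removal of PCR duplicates is not given in the sources used here, so reads need not be independent molecules. The table keeps a CpG only where each of the 16 libraries covers it by 10 reads or more. Chromosomes 12, 18, 19, X and Y were not analysed here, and 2 further columns of per-sample values were not used.

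From these counts the level of each CpG was computed as 100 times methylated over all reads, without a pseudocount. Distances were taken to transcript starts of protein-coding genes in GENCODE M21, and density and flanks from the GRCm38 reference. Values per line were compared by exact two-sided sign-flip tests over 14 lines, and families by exact permutation of 7 against 7 lines. Single CpGs were tested by a quasi-binomial F-test over 14 lines with Benjamini-Hochberg adjustment over 1203687 CpGs. Python 3.11.15, numpy 2.4.6, scipy 1.17.1, pandas 2.3.3 and matplotlib 3.10.9 were used.

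Genes and deserts were named by rule: the 10 genes and the 10 deserts with most CpGs, members of 2 gene lists with at least 10 desert CpGs, and, among deserts with at least 30 CpGs, the 3 lowest, the 3 highest and the 3 largest family differences each way. Blocks were named by rule as well. Some items that these rules select are not reported here. The members, lists and alternatives were chosen with earlier results of these data known. The repeats without the desert with the ribosomal DNA copy or without named lines, the comparisons within density classes and among isolated CpGs, and the paired variance share difference were added after the data were seen. Replicate numbers did not pair the lines: same-numbered lines had correlations of -0.00706 to 0.00491 in their deviations from the family means.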

Additional observations from a re-analysis of the deposited data

Results flagged for a closer look

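MEF-2 clonal line 3 lay far from the other 6 MEF-2 lines in 8 of the 12 quantities checked in that family, and no other line did in the 24 checks over both families. Several of these quantities share the desert level or partial share, so they are not separate findings, and the 95% critical value used lets chance pick out about 1 in 20 groups. Its desert level was 52.5% (others 54.9 to 56.0%) and its desert partial share 45.5% (others 40.4 to 41.0%). Its gap to CpGs within 10 kb of a start was 18.6 points in level and 20.9 points in partial share, and 3.25 and 13.2 points after weighting for density. Its gap in faithful calls was -16.4 points and its context gap -21.8 points. The file of this line listed 5500212 CpGs, against 4519324 to 5049749 in the others, and the part of that in these values was not tested.

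Of 10 desert contrasts, 9 differed between the families by an exact permutation test over 7 against 7 lines, with adjusted p from 0.000971 to 0.0201. As MEF-1 minus MEF-2, the difference was 1.98 points for level, 1.35 for density-weighted level, 3.24 for faithful calls and 1.38 for sequence context. It was -2.22 points for the partial share, -1.32 for the density-weighted partial share, -0.775 for the deviation of a line, -0.419 for gene bodies and -1.18 for the parental state kept. Without MEF-2 line 3 these differences kept their direction and an unadjusted p under 0.05, at 1.63, 1.06, 2.94 and 1.13 points, then -1.91, -1.08, -0.829, -0.403 and -1.301 points. Without MEF-1 lines 1, 4 and 5 the difference in the parental state kept was -0.776 points (exact permutation p = 0.133), and the other 8 kept their direction and an unadjusted p under 0.05. For neighbour similarity it was -0.227 (exact permutation p = 0.151). Embryo, sex and the immortalisation and culture of each parental line cannot be told apart in these differences.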

How the results depend on the processing

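Over 36 alternative settings, 552 of 559 values kept their direction and their side of the threshold. Against CpGs 1 to 10 kb from a start the level gap turned to -2.04 points and the density-weighted level gap to -4.78. With starts of all genes the density-weighted level gap against CpGs within 10 kb was 0.577. The gap in parental state kept turned to -0.308 with partial set at 20 to 80%. The share of desert CpGs called between families was 10.8% with 20 points and no overlap and 17.3% at an adjusted p under 0.01, against 9.15 and 13.8% of all CpGs. The cause was not tested. Leaving out 1 line at a time, the level gap ran from 21.6 to 22.0 points the desert partial share difference between families from -2.74 to -1.79 points, and the share called from 24.1 to 25.7% in deserts and from 18.3 to 19.3% over all CpGs. With the replicate block the family difference was 3.08 points, its difference from start-near CpGs 1.98 and the share called 22.6%, against 17.2% of all CpGs. The lines share only a number, and the block changed no direction. Thinning to 10 reads gave 20.1% called in deserts and 16.1% over all CpGs. Captured CpGs, 1 embryo per family and 1 library per parental line limit what these values cover.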
